A study of Arabidopsis thaliana with 21 samples.

Results

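The 59 loci described here had many 22-nt small RNA reads in Arabidopsis thaliana plants carrying the dcl4-2 allele, few in wild-type Col-0, and few again in dxo1-2dcl4-2 plants, which carry the dxo1-2 allele as well. They were chosen by their 22-nt values among 32420 annotated loci. A locus was taken when its mean over the 3 dcl4-2 libraries was at least 50 normalized reads, at least 8 times the Col-0 mean plus 1, and at least 4 times the dxo1-2dcl4-2 mean. The first condition held for 200 loci, the first and second for 64, and all of them for 59. Because these 22-nt values made the choice, they are given below as a description with no test, and the tests concern the 21-nt reads, the 24-nt reads and the mRNA of the same loci.

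The small RNA libraries came from 10-day-old plants of 4 genotypes with 3 libraries each: dcl4-2, dxo1-2dcl4-2, dxo1-2 and Col-0. The mRNA libraries came from 16-day-old plants labelled dxo1-1, dxo1-2 and Col-0, also with 3 libraries each, so mRNA was measured in no plant with the dcl4-2 allele. Each label gives rosette leaves as the tissue, while the extraction protocol of the small RNA libraries names seedlings. The labels do not describe the alleles beyond their names, and nothing says that the replicates were separate plant cultures, so the p-values measure the spread between libraries, which may be technical.

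Arabidopsis has several Dicer-like enzymes that cut double-stranded RNA to fixed lengths. DCL4 makes 21-nt small interfering RNAs (siRNAs), DCL2 makes 22-nt siRNAs and is known to act on some DCL4 substrates when DCL4 is lost, and DCL3 makes 24-nt siRNAs that guide DNA methylation at transposons and other repeats. The double-stranded RNA for DCL4 and DCL2 is made largely by the RNA-dependent polymerase RDR6, and that for DCL3 by RDR2. DXO1 is an enzyme that removes NAD caps from RNA and can digest RNA from its 5′ end, and so belongs to the machinery that decides which RNA ends are open to decay.

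The deposited small RNA values were reads per locus divided by a size factor for each library, called normalized reads here. Summed over the 21-, 22- and 24-nt tables, a library held 195104 to 303428 reads in dcl4-2, 728418 to 1403794 in dxo1-2dcl4-2, 288852 to 893943 in dxo1-2 and 173804 to 482309 in Col-0, so the dcl4-2 libraries were among the shallower ones. As a check of the dcl4-2 label, 12 pentatricopeptide repeat genes were looked up, a family known to give rise to DCL4-dependent siRNAs. Of these, 11 had lower 21-nt reads in dcl4-2 than in Col-0 (limma, adjusted p under 0.05), where 0.317% of all loci tested did. The median log2 fold change was -6.88 over the 12. The same number, 11 of 12, was lower in dxo1-2dcl4-2 than in dxo1-2, where 3.16% of all loci were, with a median of -4.93. Some of the 12 may share reads, as AT1G62914, AT1G63080 and AT1G63400 had nearly equal Col-0 means of 2090, 2175 and 2098. Other genes looked up with them went both ways in dcl4-2 against Col-0. MIR822A was lower, at a log2 fold change of -2.82. The nitrate reductase gene NIA1 and the phloem genes SMXL4 and SMXL5 were called higher, at 1.81, 6.42 and 3.91. In the mRNA libraries DXO1 itself averaged 212 FPKM under the dxo1-1 label, 6.73 in dxo1-2 and 10.9 in Col-0, so the libraries with the dxo1-1 label held more DXO1 mRNA than those of Col-0. Leaf genes were high in all 9 mRNA libraries, with RBCS1A, the small subunit of Rubisco, at 16483 to 28066 FPKM, and flower and seed genes reached 0.87 FPKM at most, while the root list was mixed, with PYK10, a glucosidase, at 293 to 490 FPKM, the aquaporin TIP2;3 at 0.15 to 4.95 and the root hair regulator RHD6 at 0.11 at most.

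All 59 loci matched the RefSeq annotation, which called every one of them a pseudogene and gave none a gene symbol. Of the 32420 loci in the table, 12.04% have that biotype. RefSeq has no separate biotype for transposable element genes, so the pseudogene class may hold them, and no transposon family is named for any of the 59. Loci of this kind can exist in several similar copies, and the sources used here do not say how the authors counted a read that matches several copies, so reads of similar copies may have been shared or counted at each. No pair of the 59 had identical 22-nt reads in all libraries.

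On each of the 5 chromosomes, the part of the gene order from the first to the last of the loci is called a stretch here. Going by locus ID, the 9 loci of chromosome 1 ran from AT1G36520 to AT1G42370, which are 48.1% and 51.8% of the way along the chromosome's loci. On chromosome 2 the 8 loci ran from AT2G06250 to AT2G14180, or 12% to 27.8%. On chromosome 3 the 9 loci ran from AT3G30668 to AT3G43862, or 53.9% to 65.9%. Arabidopsis transposons and pseudogenes are known to be dense around the centromeres, and the stretches fell mostly where the share of pseudogenes was high. The 14 loci of chromosome 4 ran from AT4G03860 to AT4G08080, or 9.96% to 24.4%, and the 19 of chromosome 5 from AT5G29975 to AT5G35057, or 42.1% to 47.9%. The loci did not fill these stretches evenly. After AT4G03860 the next was AT4G05591, at 15.6%, and after AT2G06250 the next was AT2G09187, at 17.7%. The 5 stretches together held 3079 loci, 9.56% of the loci in the nuclear gene order, of which 2181 were pseudogenes and 654 protein-coding. Among the 10 nearest neighbours of a locus, the median was 9 pseudogenes and 0 protein-coding genes for the 59, and 6 pseudogenes and 2 protein-coding genes for the other pseudogenes. The loci did not form tight clusters of their own: 48 of the 59 had no other of them among their 10 neighbours, and 0 pairs were adjacent. The 22-nt reads in dcl4-2 were not spread evenly, and the 19 loci of chromosome 5 gave 40.4% of the summed value.

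**Figure D1:**
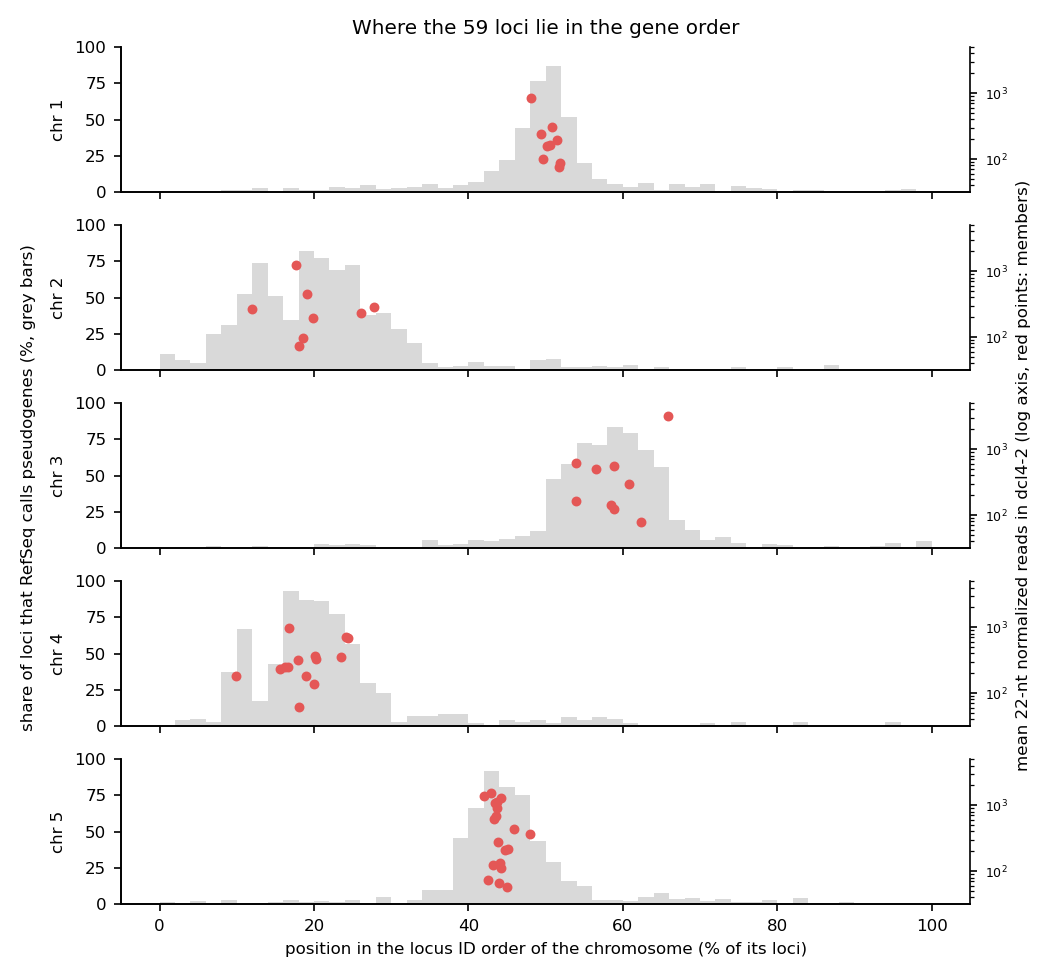
Position of the 59 loci in the locus ID order of each chromosome (x axis, percent of the chromosome's loci), with their mean 22-nt normalized reads in the 3 dcl4-2 libraries as red points (right axis, log scale) and the share of loci that RefSeq calls pseudogenes in bins of 2% as grey bars (left axis). Most red points stand over high grey bars. Lower bars with members are at 34.6% and 37.7% on chromosome 2, and at 37.4% and 43.0% on chromosome 4.

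Many of the loci were alike in length. Members were 1082 to 8789 bases long with a median of 1965, and the other 3844 pseudogenes with a length had a median of 1945 bases. A band of 1800 to 2100 bases held 24 members (40.7%), against 6.09% of the other pseudogenes, and 16 members (27.1%) were longer than 5000 bases, against 7.80%. A further 9 members were shorter than 1800 bases and 10 lay between the bands. The bands were chosen after the lengths were seen and were not tested. The narrow band held 12 of the 19 loci on chromosome 5. Length and 22-nt level were nearly unrelated, with a Spearman correlation of 0.088 over the 59 loci, which share libraries and may share reads.

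**Figure D2:**
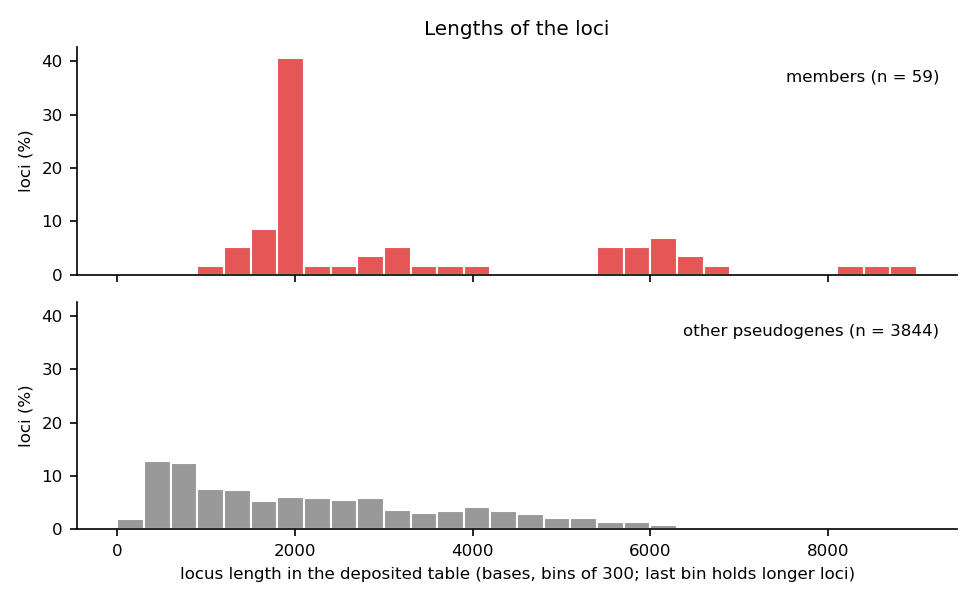
Lengths of the 59 members (upper panel) and of the 3844 other pseudogenes (lower panel) as a percentage of loci in bins of 300 bases. The members pile up between 1800 and 2100 bases, where 24 of them lie, and have a further group above 5000 bases.

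At the 59 loci together, the summed 22-nt normalized reads were 31159, 25437 and 22785 in the dcl4-2 libraries, 1449, 1909 and 1401 in dxo1-2dcl4-2, 1247, 1288 and 1117 in dxo1-2, and 601, 673 and 685 in Col-0. Every dcl4-2 library was thus above every other library, and the dxo1-2dcl4-2 and dxo1-2 libraries were all above those of Col-0. The means were 26461 ± 4280 in dcl4-2, 1586 ± 280 in dxo1-2dcl4-2, 1217 ± 89.1 in dxo1-2 and 653 ± 45.5 in Col-0 (SD, n = 3 each). Of all 22-nt reads assigned to loci, the 59 loci took 25.2 ± 2.74% in dcl4-2, 0.327 ± 0.0462% in dxo1-2dcl4-2, 1.83 ± 0.104% in dxo1-2 and 0.805 ± 0.0610% in Col-0 (SD, n = 3 each). The share in dxo1-2dcl4-2 was below that in Col-0 although the normalized sum was above it, and other loci took many more 22-nt reads in those libraries, NIA1 among them with a mean of 158063 normalized reads.

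The most common read length at the 59 loci is given as a description, since the choice by 22-nt values bears on it. Of their 21-, 22- and 24-nt reads, 22-nt reads were 72.2 ± 2.18% in dcl4-2, 38.1 ± 2.45% in dxo1-2dcl4-2, 25.1 ± 2.99% in dxo1-2 and 25.1 ± 4.51% in Col-0 (SD, n = 3 each). The 24-nt reads were 11.3 ± 2.90% in dcl4-2, 48.9 ± 3.82% in dxo1-2dcl4-2, 64.2 ± 4.39% in dxo1-2 and 62.1 ± 11.2% in Col-0. The mixture in dxo1-2dcl4-2 thus stood between that of dcl4-2 and that of the plants with wild-type DCL4. Locus by locus, 22 nt was the most common length at 58 of 59 loci in dcl4-2, 24 nt at 41 and 22 nt at 16 in dxo1-2dcl4-2, 24 nt at 59 in dxo1-2 and 24 nt at 57 in Col-0. The exception in dcl4-2 was AT2G09930, named here because of its values. Before division by the size factors, it had 62, 74 and 88 21-nt reads beside 55, 27 and 72 22-nt reads in the 3 libraries.

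**Figure D3:**
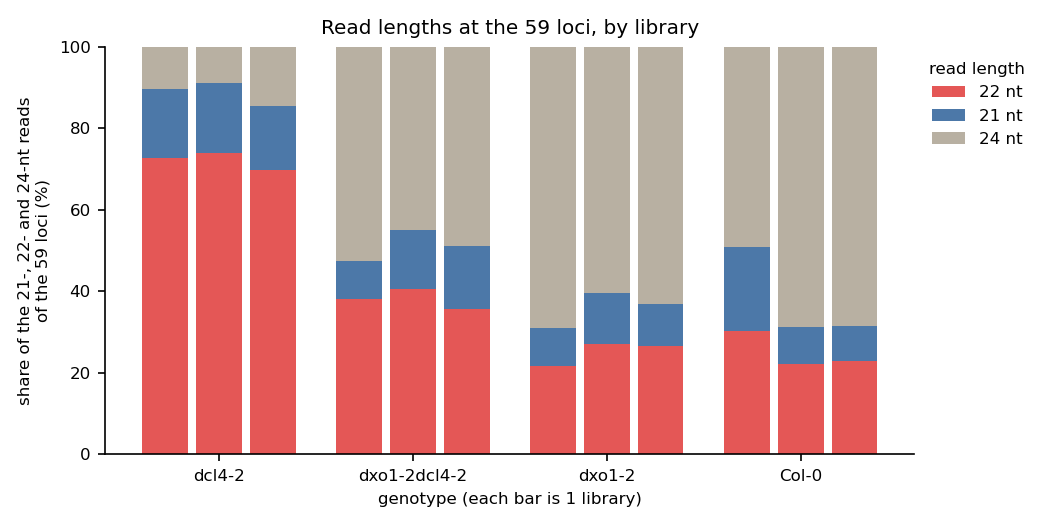
Share of 22-, 21- and 24-nt reads among the reads of the 59 loci (y axis, percent), with 1 stacked bar per library, 3 per genotype. Reads of 22 nt make up 69.8% to 74.0% in the dcl4-2 bars and 35.7% to 40.6% in the dxo1-2dcl4-2 bars.

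The locus with the most 22-nt reads, AT3G43862, had 3699, 2955 and 3014 in dcl4-2, against 59.2, 86.4 and 92.6 in dxo1-2dcl4-2, 39.01, 21.7 and 13.3 in dxo1-2 and 9.69, 16.6 and 13.2 in Col-0. AT5G31719 had 1810, 1438 and 1321 in dcl4-2, against 51.05, 52 and 20.8 in dxo1-2dcl4-2, 24.1, 34.1 and 33.8 in dxo1-2 and 15.5, 12.8 and 21.9 in Col-0. AT5G29975 had 1598, 1314 and 1269 in dcl4-2, against 69.04, 64.2 and 42.8 in dxo1-2dcl4-2, 40.2, 49.6 and 52.03 in dxo1-2 and 38.8, 17.3 and 30.7 in Col-0. At each of these loci the dcl4-2 libraries stood apart from the other 9, which lay below 100 normalized reads. AT5G32511 had 1352, 1438 and 1076 in dcl4-2, against 20.3, 41.3 and 38.2 in dxo1-2dcl4-2, 22.3, 27.9 and 22.4 in dxo1-2 and 7.75, 7.54 and 5.48 in Col-0. AT2G09187 on chromosome 2 had 1373, 1310 and 1088 in dcl4-2, against 74.3, 48.9 and 50.95 in dxo1-2dcl4-2, 38.4, 29.96 and 40.3 in dxo1-2 and 21.3, 15.8 and 27.4 in Col-0. AT5G32306 had 1256, 1041 and 1004 in dcl4-2, against 49.3, 48.9 and 28.9 in dxo1-2dcl4-2, 19.2, 33.05 and 26.02 in dxo1-2 and 1.94, 3.77 and 16.4 in Col-0. At AT5G32306 the dxo1-2dcl4-2 libraries were all above those of Col-0, and the same held at the loci before it except AT5G31719, where 1 dxo1-2dcl4-2 library lay below the highest of Col-0. AT5G32107 had 1237, 1049 and 1005 in dcl4-2, against 25.5, 57.4 and 31.3 in dxo1-2dcl4-2, 22.9, 28.9 and 32.9 in dxo1-2 and 11.6, 12.1 and 13.2 in Col-0. AT4G06517, the highest on chromosome 4, had 1166, 889 and 877 in dcl4-2, against 19.1, 44.4 and 17.4 in dxo1-2dcl4-2, 17.96, 21.7 and 23.7 in dxo1-2 and 3.88, 6.03 and 6.58 in Col-0. These 8 loci held 44.8% of the summed 22-nt value in dcl4-2.

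A further 8 loci are given in full because they had the largest 21-nt or 24-nt changes after those 8. AT5G32228 had 1073, 809.7 and 881 in dcl4-2, against 23.8, 41.3 and 25.5 in dxo1-2dcl4-2, 17.96, 18.6 and 19.8 in dxo1-2 and 5.82, 4.52 and 9.87 in Col-0 normalized 22-nt reads. AT5G32197, in the same stretch of chromosome 5, had 861, 631 and 595 in dcl4-2, against 30.8, 36.7 and 24.3 in dxo1-2dcl4-2, 13.6, 13.4 and 16.6 in dxo1-2 and 3.88, 2.26 and 2.19 in Col-0. AT4G08080 had 914, 599.8 and 553 in dcl4-2, against 19.7, 38.2 and 39.4 in dxo1-2dcl4-2, 26, 29.96 and 16.6 in dxo1-2 and 9.69, 6.78 and 4.38 in Col-0. All of them kept the order seen above, with dcl4-2 far above the rest. AT2G10310 had 489, 502 and 359.7 in dcl4-2, against 27.9, 45.1 and 11.6 in dxo1-2dcl4-2, 17.3, 30.99 and 22.8 in dxo1-2 and 11.6, 20.4 and 14.2 in Col-0. AT4G06720 had 412, 345 and 338 in dcl4-2, against 4.64, 25.2 and 8.11 in dxo1-2dcl4-2, 14.2, 18.6 and 4.23 in dxo1-2 and 5.82, 1.51 and 5.48 in Col-0. AT4G06573 had 326, 359 and 284 in dcl4-2, against 18.6, 40.5 and 10.4 in dxo1-2dcl4-2, 21.1, 24.8 and 16.3 in dxo1-2 and 5.82, 17.3 and 9.87 in Col-0. At these loci the dxo1-2dcl4-2, dxo1-2 and Col-0 libraries overlapped. AT1G40310 had 402, 251 and 252 in dcl4-2, against 22.6, 17.6 and 25.5 in dxo1-2dcl4-2, 11.8, 14.5 and 9.76 in dxo1-2 and 9.69, 0.754 and 9.87 in Col-0. AT4G06624 had 214, 192 and 143 in dcl4-2, against 21.5, 20.6 and 9.26 in dxo1-2dcl4-2, 8.67, 14.5 and 14.3 in dxo1-2 and 0, 6.78 and 2.19 in Col-0, with no read in the first Col-0 library.

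Per kilobase, the mean 22-nt value in dcl4-2 ran from 12.03 at AT1G38360, which is 8397 bases long, to 1846 at AT3G43862, which is 1746 bases long, with a median of 101. The other loci named by the rule of the 25 highest 22-nt means, taken without regard to length, were AT1G36520, AT4G08050, AT3G30695, AT5G32053, AT3G33067, AT3G32010, AT5G33389, AT5G35057, AT4G07942 and AT4G06736. Their means ranged from 847 ± 159 at AT1G36520 to 330 ± 76.4 at AT4G06736 (SD, n = 3). The loci given in full above are also among the 25, except AT4G06624, at 183 ± 36.5. The lowest of the 25 was AT1G40310, at 302 ± 86.6, and the lowest of the 59 was AT5G32726, at 56.6 ± 16.7. Over all 59 loci, every dcl4-2 value was above the values of the other 9 libraries. In the fit used below, which for these reads repeats the values that chose the loci, all 59 were called higher in dcl4-2 than in Col-0. There 1.02% of 8498 loci were called higher, among them 19 of the 2683 other pseudogenes tested. In dxo1-2dcl4-2 against dcl4-2, 56 of the 59 were called lower, where 2.48% of all loci were, among them 28 other pseudogenes. Nothing is read from these counts.

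Just inside the limit of 50 normalized reads lay AT5G32726, AT4G06578 and AT5G32423, at 56.6, 62.6 and 66.6, and just outside it the pseudogenes AT4G06615, AT5G31981 and AT4G06718, at 33.0, 32.9 and 27.4. The ratio of dcl4-2 to Col-0 plus 1 was 8.46, 8.77 and 8.91 at AT5G30762, AT5G32475 and AT2G14180 just inside, and 7.30, 7.12 and 6.42 at AT1G40101, AT3G32880 and AT3G30418 just outside. The ratio of dcl4-2 to dxo1-2dcl4-2 was 4.11, 4.37 and 4.68 at AT1G38360, AT5G32423 and AT5G30762 just inside. The only 5 loci to fail at this last condition were the pseudogenes AT3G33081, at 3.64, and AT3G33058, at 2.28, and 3 protein-coding genes with ratios of 0.078 or less. These were SMXL4 (AT4G29920) and SMXL5 (AT5G57130), which act in phloem formation, and NIA1 (AT1G77760), a nitrate reductase, whose 22-nt means were 3430, 5966 and 158063 in dxo1-2dcl4-2, against 269, 52.5 and 381 in dcl4-2. By the construction of the rule, such genes, higher in dxo1-2dcl4-2 than in dcl4-2, are not among the 59.

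The 21-nt reads of the same loci, which the choice did not use but which come from the same libraries, were also higher in dcl4-2. All 59 loci had a mean of at least 1 normalized read over the 12 libraries and were tested with limma on log2 of normalized reads plus 0.5. In dcl4-2 against Col-0, 37 of the 59 were called higher at an adjusted p under 0.05, and the other 22 were not called, in a test where 0.545% of 7892 loci were called higher. The median log2 fold change was 3.73 over the 59 and -0.15 over all loci tested. Of the 1975 other pseudogenes tested, 0 were called higher, with a median of -0.44. The 43 loci called higher in all were 86.0% members. The remaining 6 included NIA1, SMXL4 and SMXL5 again.

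The summed 21-nt normalized reads of the 59 loci averaged 5380 ± 859 in dcl4-2, 627 ± 177 in dxo1-2dcl4-2, 591 ± 75.3 in dxo1-2 and 261 ± 28.3 in Col-0 (SD, n = 3 each). AT5G32228 had 340, 222 and 281 in dcl4-2, against 7.81, 18.8 and 27.8 in dxo1-2dcl4-2, 6.77, 5.27 and 10.6 in dxo1-2 and 0, 2.15 and 1.95 in Col-0 and rose by a log2 fold change of 7.55 ± 0.79 (SE; limma, adjusted p = 2.06e-06). AT5G32197 had 245, 235 and 162 in dcl4-2, against 5.68, 15.2 and 15.2 in dxo1-2dcl4-2, 3.76, 2.11 and 12.8 in dxo1-2 and 4.11, 1.44 and 0 in Col-0 and rose by 7.003 ± 0.88 on the log2 scale (adjusted p = 2.07e-05). AT3G43862, the first at 22 nt, had 450.2, 375 and 464 in dcl4-2, against 12.1, 23.2 and 3.796 in dxo1-2dcl4-2, 9.03, 28.4 and 7.18 in dxo1-2 and 6.85, 2.15 and 2.93 in Col-0 21-nt reads and rose by 6.72 ± 0.74 (adjusted p = 3.66e-06). In each case the 3 dcl4-2 libraries lay above all others and the dxo1-2dcl4-2 and dxo1-2 libraries overlapped. AT5G32511 had 233, 234 and 184 in dcl4-2, against 19.2, 5.37 and 8.86 in dxo1-2dcl4-2, 8.28, 7.38 and 10.2 in dxo1-2 and 5.48, 0.718 and 0.976 in Col-0. AT5G32107 had 307, 253 and 286 in dcl4-2, against 9.23, 25.04 and 27.8 in dxo1-2dcl4-2, 11.3, 9.48 and 11.3 in dxo1-2 and 2.74, 3.59 and 1.95 in Col-0. AT5G32306 had 335, 245 and 241 in dcl4-2, against 12.8, 24.1 and 8.86 in dxo1-2dcl4-2, 10.5, 8.43 and 13.98 in dxo1-2 and 1.37, 3.59 and 10.7 in Col-0. The dcl4-2 libraries were again apart from the rest, and these 3 loci rose by 6.61, 6.46 and 5.94 on the log2 scale in dcl4-2 relative to Col-0.

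Outside that group, AT4G06517 had 315, 192 and 226 in dcl4-2, against 16.3, 16.1 and 8.86 in dxo1-2dcl4-2, 9.03, 10.5 and 8.69 in dxo1-2 and 1.37, 2.87 and 7.81 in Col-0. AT4G08080 had 220.4, 137 and 161 in dcl4-2, against 7.81, 8.94 and 10.1 in dxo1-2dcl4-2, 7.52, 10.5 and 6.42 in dxo1-2 and 5.48, 2.15 and 0 in Col-0. AT4G06624 had 109, 109 and 96.7 in dcl4-2, against 2.13, 4.47 and 1.26 in dxo1-2dcl4-2, 4.51, 4.21 and 6.04 in dxo1-2 and 2.74, 1.44 and 0.976 in Col-0. The 3 are on chromosome 4 and rose by 5.65 to 6.41 on the log2 scale. AT5G29975 had 369.5, 249 and 312 in dcl4-2, against 24.1, 32.2 and 44.3 in dxo1-2dcl4-2, 17.3, 14.8 and 20.4 in dxo1-2 and 8.22, 6.46 and 16.6 in Col-0. AT5G31719 had 402, 284 and 297 in dcl4-2, against 8.52, 39.4 and 15.2 in dxo1-2dcl4-2, 11.3, 7.38 and 12.8 in dxo1-2 and 9.59, 7.898 and 8.78 in Col-0. AT2G09187 had 118, 120.4 and 125 in dcl4-2, against 4.26, 24.1 and 10.1 in dxo1-2dcl4-2, 22.6, 14.8 and 13.2 in dxo1-2 and 8.22, 5.03 and 3.904 in Col-0. Here the Col-0 means were above the median of 3.72 over the 59 loci and the increases were smaller, at 4.92, 5.13 and 4.35 on the log2 scale. AT4G06720 had 68.3, 56.1 and 55.4 in dcl4-2, against 12.1, 18.8 and 32.9 in dxo1-2dcl4-2, 2.26, 2.11 and 5.67 in dxo1-2 and 0, 2.15 and 0 in Col-0, and its dxo1-2dcl4-2 values, like those of AT5G29975, lay above all its dxo1-2 values.

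AT1G40310 had 119.5, 67.03 and 46.7 in dcl4-2, against 2.84, 1.79 and 0 in dxo1-2dcl4-2, 0.752, 10.5 and 4.91 in dxo1-2 and 1.37, 0 and 4.88 in Col-0 21-nt reads, with a log2 fold change of 5.41 in dcl4-2 against Col-0. AT2G10310 had 97.8, 68.4 and 64.1 in dcl4-2, against 0.7103, 2.68 and 17.7 in dxo1-2dcl4-2, 27.1, 27.4 and 13.2 in dxo1-2 and 0, 10.1 and 3.904 in Col-0, with 4.73. Each call depended on single libraries. That of AT1G40310 was lost without Col-0 replicate 1 or 2 or without dcl4-2 replicate 1 or 2, with log2 fold changes of 4.52 to 5.47. That of AT2G10310 was lost without Col-0 replicate 1 or 3, without any 1 of the dcl4-2 replicates or without dxo1-2 replicate 2, at 3.48 to 5.05. AT4G06573 had 82.3, 73.9 and 64.1 in dcl4-2, against 3.55, 3.58 and 0 in dxo1-2dcl4-2, 27.1, 28.4 and 7.56 in dxo1-2 and 4.11, 12.9 and 5.86 in Col-0 and was not called (adjusted p = 0.0969), though its dcl4-2 libraries lay above all others. It was called with edgeR, with DESeq2, after centring, with a mean of at least 5, with a pseudocount of 1 and without dxo1-2dcl4-2 replicate 3, at log2 fold changes of 3.21 to 5.13.

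The number of members called higher at 21 nt depended on the libraries used. It was 21 without dcl4-2 replicate 1, 21 without replicate 2 and 24 without replicate 3, and 28, 27 and 25 without Col-0 replicate 1, 2 and 3 in that order. With all libraries, the fitted change was above 0 at all 59 loci, from 0.89 to 7.55 on the log2 scale. Every dcl4-2 value was above the values of the other 9 libraries at 47 of the 59 loci, where 1.09% of the 7892 loci tested had this order. By chromosome, the calls were 3 of 9 loci on chromosome 1, 8 of 8 on chromosome 2, 6 of 9 on chromosome 3, 8 of 14 on chromosome 4 and 12 of 19 on chromosome 5. The 22 loci not called include AT3G33067, whose dcl4-2 libraries had 110.2, 98.5 and 88 21-nt reads, against 4.11, 2.15 and 2.93 in Col-0 (adjusted p = 0.0586).

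**Figure D4:**
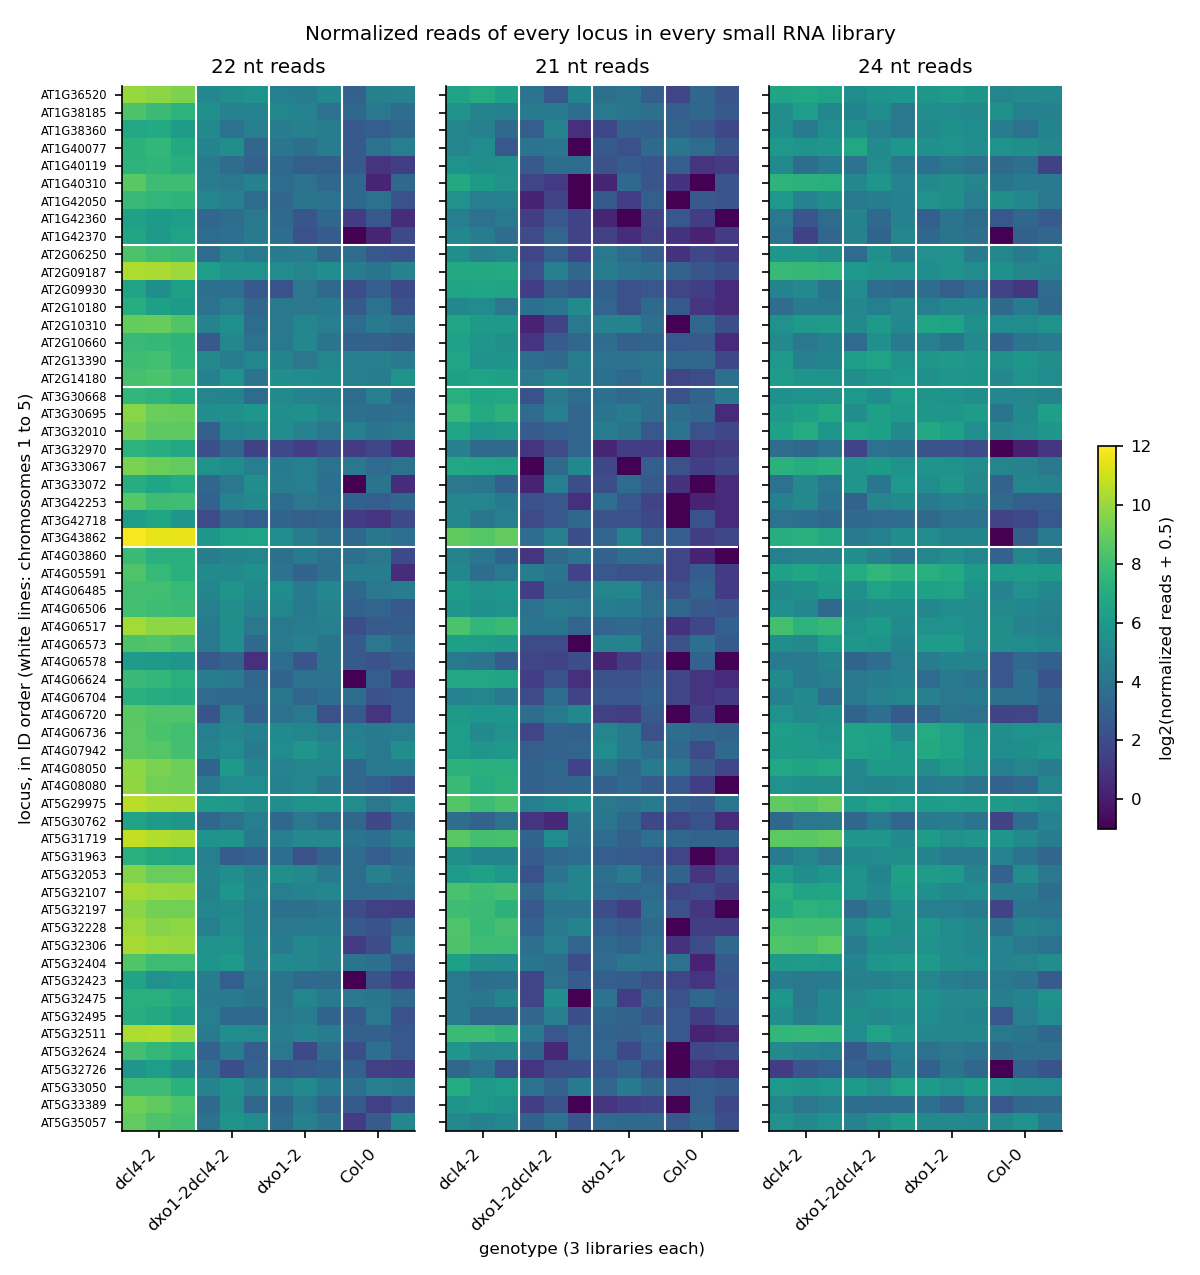
Log2 of normalized reads plus 0.5 (colour) of each of the 59 loci (rows, in ID order, chromosomes divided by white lines) in each of the 12 small RNA libraries (columns, 3 per genotype), for 22-, 21- and 24-nt reads. The dcl4-2 columns are bright in the 22-nt panel at every locus, in the 21-nt panel at most loci and in the 24-nt panel at a subset such as AT5G29975, AT5G31719 and AT5G32306.

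The 24-nt reads, the size class made by DCL3, rose at a smaller subset of the loci. In dcl4-2 against Col-0, 15 of the 59 were called higher (limma, adjusted p under 0.05) and 44 were not called, where 0.26% of 8473 loci were called higher. The median log2 fold change was 1.02 over the 59 and -0.08 over all loci, and of the 3266 other pseudogenes tested 0 were called higher, with a median of -0.24. The 22 loci called higher in all were 68.2% members. The summed 24-nt normalized reads averaged 4796 ± 212 in dcl4-2, 2453 ± 156 in dxo1-2dcl4-2, 2357 ± 337 in dxo1-2 and 1436 ± 91.1 in Col-0 (SD, n = 3 each), and the 3 dcl4-2 libraries were above all others.

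AT5G29975 had 452, 404 and 524 in dcl4-2, against 70.1, 93.2 and 74.6 in dxo1-2dcl4-2, 70.2, 74.6 and 72.99 in dxo1-2 and 66.5, 56.4 and 37.5 in Col-0 24-nt reads and rose by a log2 fold change of 3.13 ± 0.26 (SE; limma, adjusted p = 4.47e-09). AT5G31719 had 422, 402 and 473 in dcl4-2, against 58.9, 56.5 and 37.3 in dxo1-2dcl4-2, 69.8, 47.6 and 53.7 in dxo1-2 and 55.8, 36.2 and 21.9 in Col-0 and rose by 3.59 ± 0.32 (adjusted p = 1.26e-08). AT5G32306 had 349, 330.5 and 418 in dcl4-2, against 22.5, 43.3 and 38.8 in dxo1-2dcl4-2, 48.8, 40.4 and 32.8 in dxo1-2 and 26.6, 18.1 and 14.1 in Col-0 and rose by 4.23 ± 0.36 (adjusted p = 7.6e-09). The dcl4-2 libraries lay far above the rest at each, and the other 9 libraries did not go beyond 93.2 normalized reads. AT5G32228 had 266, 259 and 256 in dcl4-2, against 34.4, 58.4 and 44.7 in dxo1-2dcl4-2, 53.7, 38.6 and 32.3 in dxo1-2 and 13.3, 28.5 and 24.2 in Col-0. AT4G06517 had 289.5, 168 and 202 in dcl4-2, against 48.97, 66.8 and 37.3 in dxo1-2dcl4-2, 47.2, 51.2 and 39.3 in dxo1-2 and 42.5, 26.8 and 24.2 in Col-0. AT5G32511 had 194, 202 and 197 in dcl4-2, against 39.7, 88.5 and 56.7 in dxo1-2dcl4-2, 31.9, 33.2 and 33 in dxo1-2 and 18.6, 15.9 and 10.2 in Col-0. Their log2 fold changes in dcl4-2 against Col-0 were 3.604, 2.802 and 3.73. AT2G09187 had 226, 199.8 and 187 in dcl4-2, against 59.5, 52.7 and 50.7 in dxo1-2dcl4-2, 41.6, 51.2 and 38.8 in dxo1-2 and 45.2, 30.1 and 26.5 in Col-0. AT5G32197 had 121, 168 and 145 in dcl4-2, against 11.9, 21.6 and 46.2 in dxo1-2dcl4-2, 23.8, 24.3 and 20.2 in dxo1-2 and 2.66, 16.4 and 14.8 in Col-0. AT1G40310 had 172, 163 and 148 in dcl4-2, against 33.1, 55.5 and 26.8 in dxo1-2dcl4-2, 36.7, 42.2 and 29.9 in dxo1-2 and 15.9, 20.3 and 19.5 in Col-0. They rose by 2.603, 3.94 and 3.09 on the log2 scale.

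AT3G43862, whose 22-nt reads were the most abundant, had 135, 150.4 and 115 in dcl4-2, against 19.9, 23.5 and 40.3 in dxo1-2dcl4-2, 37.5, 28.8 and 28.2 in dxo1-2 and 0, 6.57 and 21.1 in Col-0 24-nt reads, and its log2 fold change of 4.97 in dcl4-2 against Col-0 depends on the pseudocount, since 1 Col-0 library had no read. AT5G32107 had 149, 96.2 and 101 in dcl4-2, against 46.98, 36.7 and 70.1 in dxo1-2dcl4-2, 44.8, 35.9 and 39.8 in dxo1-2 and 21.3, 21.9 and 12.5 in Col-0. AT4G06720 had 47.6, 34.5 and 40.6 in dcl4-2, against 8.602, 13.2 and 5.96 in dxo1-2dcl4-2, 8.88, 15.3 and 14.4 in dxo1-2 and 2.66, 2.74 and 7.81 in Col-0, a rise of 3.22. The call of AT4G06720 was lost when any 1 of 7 libraries was left out, namely Col-0 replicates 1 and 2, each dcl4-2 replicate and dxo1-2 replicates 2 and 3, with log2 fold changes of 2.98 to 3.34. Scaling by summed reads with TMM also lost it, at 3.076. The other loci called higher at 24 nt were AT3G33067, AT4G08050 and AT1G36520, with log2 fold changes of 2.596, 2.101 and 1.55. Of the loci given in full, 4 had no called change at 24 nt. AT4G08080 had 47.6, 44.4 and 42.9 in dcl4-2, against 31.1, 28.2 and 31.3 in dxo1-2dcl4-2, 19.8, 22.5 and 14.9 in dxo1-2 and 7.97, 10.4 and 31.2 in Col-0, with the dcl4-2 libraries above the others. AT4G06624 had 35.7, 19.7 and 23.2 in dcl4-2, against 17.9, 22.6 and 25.4 in dxo1-2dcl4-2, 11.3, 19.8 and 15.2 in dxo1-2 and 5.32, 13.2 and 4.68 in Col-0, with dcl4-2 mixed with the other mutants. AT2G10310 had 47.6, 64.1 and 73.1 in dcl4-2, against 37.1, 65.9 and 32.8 in dxo1-2dcl4-2, 102, 91.6 and 45.5 in dxo1-2 and 39.9, 39.99 and 48.4 in Col-0, with its highest values in dxo1-2. AT4G06573 had 43.6, 34.5 and 78.9 in dcl4-2, against 58.2, 48.9 and 28.3 in dxo1-2dcl4-2, 70.6, 71.9 and 38.3 in dxo1-2 and 42.5, 39.5 and 32.8 in Col-0, where all 4 genotypes overlapped.

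The overlap of the calls at both lengths and their 22-nt levels are given as a description, since 22-nt values chose the loci. Of the 15, 14 were also called higher at 21 nt, 23 loci were called at 21 nt only, 1 at 24 nt only and 21 at neither. The 15 had a median of 977 normalized 22-nt reads in dcl4-2, with 302 as the lowest, and the other 44 had a median of 196, with 689 as the highest. The median 24-nt mean in Col-0 was 21.99 for the 15 and 22.04 for the 44. Over the 59 loci in dcl4-2, the Spearman correlation of the 22-nt mean was 0.836 with the 21-nt mean and 0.864 with the 24-nt mean, and it was 0.400 with the 24-nt mean in Col-0. These describe loci that share libraries and may share reads. Every dcl4-2 value at 24 nt was above the values of the other 9 libraries at 17 of the 59 loci, where 1.43% of the 8473 loci tested had this order.

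**Figure D5:**
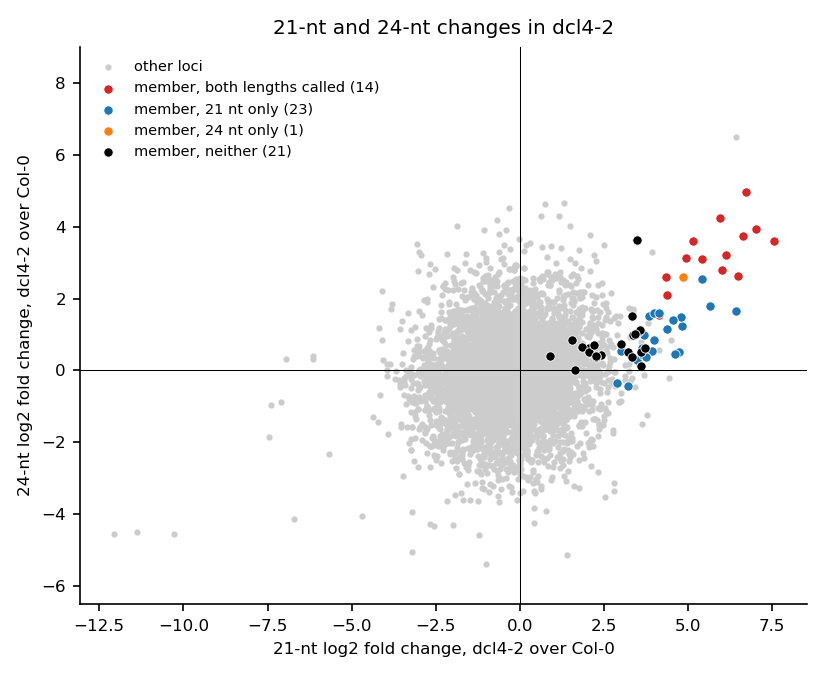
Log2 fold change of dcl4-2 over Col-0 in 21-nt reads (x axis) and 24-nt reads (y axis) for the 5328 loci tested at both lengths, with the 59 members coloured by which change was called (limma, adjusted p under 0.05). All 59 members lie right of 0 on the x axis, and the 14 called at both lengths lie at the upper right.

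With dxo1-2 beside dcl4-2, the 21-nt reads were lower again. In dxo1-2dcl4-2 against dcl4-2, 28 of the 59 were called lower at 21 nt, where 1.55% of all loci were, and 31 were not called. The median log2 fold change was -2.87 over the 59 and 0.19 over all loci, and the fitted change was below 0 at all 59. The largest were -5.54 at AT1G40310, -5.301 at AT3G43862, -5.21 at AT4G06624 and -5.18 at AT4G06573 (limma, adjusted p of 0.00245, 3.63e-05, 0.000194 and 0.000468 in that order). AT4G06720 was an exception among the loci given in full, at -1.58 and not called (adjusted p = 0.422). The call of AT2G10310, at -4.202, was lost without any 1 of the dcl4-2 replicates or without dxo1-2dcl4-2 replicate 1 or 2, at -4.32 to -3.32 on the log2 scale. This comparison shares the dcl4-2 libraries with the one against Col-0.

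At 24 nt, 10 of the 59 were called lower in dxo1-2dcl4-2 than in dcl4-2, where 2.88% of all loci were, with a median log2 fold change of -0.25 over the 59 and -0.07 over all loci. The 10 were AT5G32306, AT5G31719, AT5G32197, AT5G29975, AT5G32228, AT1G40310, AT4G06517, AT2G09187, AT5G32511 and AT3G33067, and the changes ran from -3.42 at AT5G32306 to -1.38 at AT3G33067. Each of the 10 was also called higher in dcl4-2 than in Col-0. After centring each library the count was 8, and AT5G32511, at -1.517, was among the loci no longer called. AT3G43862, AT5G32107 and AT4G06720 had log2 fold changes of -2.29, -1.18 and -2.14 and were not called (adjusted p = 0.0827, 0.0817 and 0.0721). Both edgeR and DESeq2 on the recovered reads called all 3 lower, at -2.52 and -2.295 for AT3G43862, -1.45 and -1.19 for AT5G32107, and -2.34 and -2.12 for AT4G06720, edgeR's value first. In limma the call was gained without Col-0 replicate 1 or 3 at AT3G43862, where the fold change was -2.29, without dxo1-2dcl4-2 replicate 3 at AT5G32107, where it was -1.43, and without dxo1-2dcl4-2 replicate 2 at AT4G06720, where it was -2.42.

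In plants with wild-type DCL4, limma called no change of these reads with dxo1-2. At 21 nt, 0 of the 59 were called changed in dxo1-2 against Col-0, where 0.748% of all loci were called higher. The median log2 fold change was 1.35 over the 59 and 0.44 over all loci. At an unadjusted p under 0.05, limma gave 18 members higher, where 8.05% of all loci were. Neither edgeR nor DESeq2 on the recovered reads called any member, each with 0. At 24 nt, limma again called 0 of the 59, where 0.0236% of all loci were called higher, with 24 higher at an unadjusted p under 0.05, where 1.40% of all loci were. The count was 0 with edgeR and 1 with limma without Col-0 replicate 3. It was 10 with DESeq2, where 0.295% of all loci were called higher, and DESeq2 gave no adjusted p for 29 of the members. The fitted 24-nt change was above 0 at all 59 loci, with a median of 0.88 over them and 0.00 over all loci.

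The effect of dxo1-2 in the dcl4-2 background was set against its effect in the wild-type background by an interaction term. The choice of loci asked for high 22-nt values in dcl4-2 and low ones in Col-0 and dxo1-2dcl4-2, in these same libraries. In dcl4-2 the 21-nt and 24-nt means followed the 22-nt means over the 59 loci (Spearman 0.836 and 0.864). The counts below therefore do not stand apart from that choice. At 21 nt, 23 of the 59 had a lower effect in dcl4-2 (limma, adjusted p under 0.05), where 0.748% of all loci did, with a median difference of -4.03 on the log2 scale over the 59 and -0.24 over all loci. The count was 15 without dcl4-2 replicate 1 and 15 without dxo1-2 replicate 2. AT2G10310 had a difference of -7.14 ± 1.46, AT3G43862 of -6.96 ± 1.04, and AT1G40310 of -6.84 ± 1.55 (SE; adjusted p = 0.00752, 0.000422 and 0.0199). AT2G10310 had few 21-nt reads in Col-0, at 0, 10.1 and 3.904, and in dxo1-2dcl4-2, at 0.7103, 2.68 and 17.7. Other 21-nt calls of AT2G10310 and AT1G40310 were lost when single libraries were left out. Their interaction calls were not checked in this way. At 24 nt, 13 of the 59 had a lower effect in dcl4-2, where 0.319% of all loci did, with a median difference of -1.23 over the 59 and -0.09 over all loci. The strongest were AT3G43862, AT5G32306, AT5G32197 and AT5G31719, at -5.197, -4.48, -3.93 and -3.76.

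With dxo1-2 in both plants, few of the 59 loci differed between plants with and without dcl4-2. This comparison, of dxo1-2dcl4-2 with dxo1-2, was added after the other results were known. At 21 nt, 1 of the 59 was called lower, where 3.16% of all loci were, and the median log2 fold change was -0.13 over the 59 and -0.47 over all loci. The locus was AT4G06573, at -3.202 ± 0.89 (SE; limma, adjusted p = 0.038), and the count was 0 without Col-0 replicate 2 or 3, any 1 of the dcl4-2 replicates, dxo1-2 replicate 1 or 2, or dxo1-2dcl4-2 replicate 3. The direction at 21 nt depends on the scaling, since centring each library moved the median of all loci to 1.47 and that of the 59 to 1.82, with 11 of the 59 called higher and 0 lower, where 9.98% of all loci were called higher and 0.507% lower. At 24 nt, limma called 0 of the 59, where 1.11% of all loci were called higher and 1.38% lower. At an unadjusted p under 0.05, 2 members were higher and 1 lower, where 5.25% and 9.7% of all loci were. With edgeR 2 were called lower, where 6.35% of all loci were, and with DESeq2 1 higher, where 3.51% were. The fitted 24-nt change was within -0.91 to 0.92 on the log2 scale at all 59 loci, with a median of -0.01. A p that misses the threshold does not show that the levels were the same.

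Almost no mRNA was measured at the 59 loci. All 59 were in the FPKM table, and 45 of them (76.3%) were listed at 0 in all 9 libraries, against 83.0% of the other pseudogenes. The highest value was 0.07 FPKM, at AT5G32306 in 1 Col-0 library. Of the 531 values of the 59 loci, those above 0 numbered 5 under the dxo1-1 label, 5 in dxo1-2 and 16 in Col-0. None of the 59 reached the mean of 1 FPKM needed for a test, in which 49.6% of 18378 genes were called higher and 26% lower for the dxo1-1 label against Col-0, and 51.8% higher and 21.2% lower for dxo1-2. After centring each library these shares were 34.4% higher and 43.5% lower under the dxo1-1 label, and 32.3% higher and 42.5% lower in dxo1-2, so the balance of directions depends on the scaling. Fewer copies of an RNA per cell and fewer cells making it cannot be told apart in such libraries, and the labels do not say whether they hold RNA without a poly(A) tail.

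Of 25 genes of the small RNA and RNA decay machinery, 22 were tested in the mRNA libraries. Under the dxo1-1 label 12 were called higher than in Col-0 and 5 lower, with a median log2 fold change of 0.23 over the list and 0.21 over all genes. For dxo1-2 the counts were 11 and 4, with medians of 0.21 over the list and 0.25 over all genes. These counts stand beside the shares of all genes given above, 49.6% higher and 26% lower, and 51.8% higher and 21.2% lower, and are read as nothing particular to the list. The directions depend on the scaling: after centring each library, the counts were 7 higher and 8 lower under the dxo1-1 label, and 6 higher and 11 lower in dxo1-2. DCL2, which makes 22-nt siRNAs, averaged 5.59 FPKM under the dxo1-1 label, 6.20 in dxo1-2 and 5.00 in Col-0, and its small increase in dxo1-2 (log2 fold change 0.26, limma, adjusted p = 0.0453) was not called after centring. AGO2, an Argonaute that can bind siRNAs, averaged 24.3 FPKM under the dxo1-1 label, 19.4 in dxo1-2 and 5.10 in Col-0, and rose by 2.06 and 1.74 on the log2 scale, with 1.74 and 1.39 after centring. RDR2, the polymerase upstream of DCL3, was lower under each scaling, at 0.867 FPKM under the dxo1-1 label and 0.867 in dxo1-2, against 1.62 in Col-0. DCL3 was also lower under each scaling, at 1.35 FPKM under the dxo1-1 label and 1.26 in dxo1-2, against 1.92 in Col-0. RDR1, another RNA-dependent polymerase of the list, went the other way, at 12.55 FPKM under the dxo1-1 label and 13.7 in dxo1-2, against 4.53 in Col-0. It was called higher under each scaling, by 1.297 and 1.408 on the log2 scale, with 0.984 and 1.055 after centring. RDR6 averaged 7.08 FPKM under the dxo1-1 label, 9.51 in dxo1-2 and 8.73 in Col-0, and was called lower under that label under each scaling, and lower in dxo1-2 after centring (log2 fold change -0.24, limma, adjusted p = 0.0178) and after quantile normalization (-0.20, adjusted p = 0.0373) but not without them. How these levels stand in dcl4-2 plants was not measured.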

How the data were processed

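Small RNA reads of 21, 22 and 24 nt were measured in 12 libraries and mRNA in 9. The deposited small RNA tables, which the authors made, hold a signal per locus, namely reads divided by 1 size factor per library: multiplied back, 100% of the values above 0 gave whole reads within 0.001 reads. The mRNA values are FPKM as the authors deposited them. Bowtie, TopHat2 2.1.0, RSEM 2.1.30 and the TAIR10 genome are named, without their roles, per the submitters' processing notes.

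The 59 loci, the gene lists and the tests were chosen with earlier results of these data known. The named loci are the 25 with the highest mean 22-nt value in dcl4-2, and values are given in full for the first 8 and for up to 8 others with the largest called changes. Each small RNA class was fitted over all 4 genotypes with limma 3.58.1 (trend, R 4.3.3) on log2(normalized reads + 0.5), for loci with a mean of at least 1, and p-values were adjusted by Benjamini-Hochberg over all loci tested. FPKM were fitted likewise on log2(FPKM + 1), for genes with a mean of at least 1. Log2 fold changes on these scales understate the change of loci with few reads. In every sentence an adjusted p is limma's unless another tool is named. Alternatives were other pseudocounts and filters, centred libraries, scaling by summed reads with TMM, quantile normalization of the mRNA, edgeR 4.0.16 (quasi-likelihood) and DESeq2 1.42.0 on the recovered reads, a replicate block and leaving out each library. The fits were tested on simulated data. Replicates of a genotype differed by 3.66 to 11.03 times their sampling noise (chi-square per degree of freedom), so none was counted as a duplicate.

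Lengths are those in the deposited mRNA table. Biotypes come from RefSeq's annotation of the TAIR10.1 assembly, which matched 31722 of the 32420 loci by locus ID. Neighbours and adjacent pairs were taken in the order of RefSeq start positions. The stretches and the percentages along a chromosome follow the order of the locus IDs instead. The 6 TAS loci, known DCL4 substrates, are not analysed here.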

Additional observations from a re-analysis of the deposited data

Results flagged for a closer look

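The effect of dxo1-2 differed between the dcl4-2 and the wild-type background at 23 of the 59 loci in 21-nt reads and at 13 in 24-nt reads. Both counts come from the interaction term in limma, at an adjusted p under 0.05, and at each of these loci the effect was lower in dcl4-2. At the same loci the choice by 22-nt reads had already asked for a low value in dxo1-2dcl4-2 and a high one in dcl4-2 of the same libraries.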

How the results depend on the processing

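Single loci were followed through the alternatives only for the 16 given in full, in dcl4-2 against Col-0 and dxo1-2dcl4-2 against dcl4-2. None of these reversed a called direction at 21 or 24 nt. The counts of members not listed here stayed within 1.5 times their value. At 21 nt in dcl4-2 against Col-0, centring each library gave 57 members in place of 37. The share of all loci called higher was then 4.26% in place of 0.545%. Centring moved the median of all loci from -0.15 to 1.66, with 5.54 for the members. Leaving out 1 library gave 21 to 41 members. The 21-nt interaction count was 23, where 0.748% of all loci were called lower. It became 38 with DESeq2, where 1.36% were, and 36 with a mean of at least 5, where 5.06% were. Without 1 library it was 15 to 25. In dxo1-2 against Col-0, 1 member was called higher at 21 nt with a mean of at least 5 in place of 0, where 4.18% of all loci were. At 24 nt 10 were called higher with DESeq2, where 0.295% of all loci were, and 0 to 1 without 1 library. At 24 nt in dxo1-2dcl4-2 against dcl4-2, DESeq2 gave 16 (15 lower, 1 higher) in place of 10. The share of all loci called lower was then 5.04% in place of 2.88%, and 2.73% were called higher. In dxo1-2dcl4-2 against dxo1-2, the 21-nt count of 1 became 2 with DESeq2, where 1.8% of all loci were called higher and 2.57% lower. It became 11 with centring (all higher), where 9.98% were higher and 0.507% lower. With a mean of at least 5 it was 2, where 8.35% were higher and 11.5% lower. It was 0 with no filter and 0 to 1 without 1 library. The 24-nt count of 0 became 1 with DESeq2 (higher), where 3.51% of all loci were higher. It became 2 with edgeR and 1 with TMM (all lower), where 6.35% and 5.58% of all loci were lower. The causes of these shifts were not tested. A limit of 8 in place of 4 times the dxo1-2dcl4-2 mean left 38 members, a mean of at least 100 left 50, 16 times the Col-0 mean plus 1 left 40, and scaling with TMM gave 63.

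Replicate numbers did not pair the samples, as deviations of same-numbered libraries correlated at -0.024 to 0.023 in the small RNA tables and -0.034 to 0.094 in the mRNA. With the replicate number as a block, the counts at 21 nt were 34 in dcl4-2 against Col-0, 29 in dxo1-2dcl4-2 against dcl4-2, 0 in dxo1-2 against Col-0, 21 for the interaction and 1 in dxo1-2dcl4-2 against dxo1-2. At 24 nt they were 15, 10, 0, 13 and 0 in that order, and 0 in both mRNA comparisons. With 3 libraries a genotype, and few 21-nt reads a locus in dxo1-2dcl4-2, dxo1-2 and Col-0, small changes may have gone uncalled.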
